A study of Mus musculus with 87 samples.

Results

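The subject is the newborn kidney of pWT mice, set against heart, liver and lung of the same genotype and stage. The libraries were picked by their labels, with earlier results of these data known. They are 3 pWT kidney libraries at P1 (postnatal day 1) against 3 heart, 3 liver and 3 lung libraries of pWT at P1, 12 of the 87 libraries in the series. The study concerns viable semi-cloned mice, animals made by giving an oocyte a haploid stem cell in place of a sperm, where the androgenetic stem cells lacked DNA methylation. Other kidney libraries serve for setting the newborn pWT kidney beside its neighbours: 2 pIR kidneys at P1, 2 pTKO kidneys at E18.5 (a late embryonic stage) and 2 pWT kidneys at E18.5, each with heart, liver and lung libraries of its own genotype and stage. The labels give tissue, genotype code and stage, and for E18.5 a batch number of 1; what the codes pWT, pIR and pTKO stand for, the strain, the sex and whether each library is a separate animal are not given in the sources used here. The p-values therefore measure the spread between these libraries, which may be technical.

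The mammalian kidney grows by an exchange of signals between the branching ureteric bud and a cap of nephron progenitors. Progenitors at the bud tips turn into nephrons, whose segments are the glomerulus with its podocytes, the proximal tubule, the loop of Henle and the distal convoluted tubule, while the bud itself becomes the collecting duct. In the newborn mouse nephrons are still being made at the rim of the organ, so progenitors and finished segments stand side by side. In bulk RNA, fewer cells of a type and less RNA per cell cannot be told apart.

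Each library held 13904567 to 19673513 gene-assigned counts, the 3 kidneys 16215236, 17083310 and 18300721. Levels are given as CPM, a library's counts scaled to a common total,, and fold changes come from edgeR's quasi-likelihood test after TMM scaling, so that they need not equal a ratio of CPM. The labelled tissues carried their own markers. The surfactant gene Sftpc was at 0.308 to 42.5 CPM in kidney, against 12400 to 14500 CPM in lung, and the summed CPM of 10 cardiac muscle genes was 11.3 to 21.9 in kidney, against 59836 to 73558 in heart. Kidney library 3 held more RNA of other organs than the other kidneys. Sftpc was at 42.5 CPM there and at 0.308 and 3.34 CPM in kidneys 1 and 2, and Alb (serum albumin of hepatocytes) at 58.9 CPM there and 2.84 and 1.29 CPM in the others. The adrenal gland, which lies on the kidney, showed little: the summed CPM of 11 adrenal genes was 18 to 20.8 in the kidneys.

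Of 17199 genes tested, 6248 (36.3%) were higher in kidney than in the mean of the 3 other tissues, weighted equally, and 5286 (30.7%) were lower, at an adjusted p under 0.05. With library totals alone in place of TMM the median gene moved to a log2 difference of 0.58, against 0.06 with TMM, and the calls became 10658 higher and 2771 lower, so that 79.4% of calls were higher, against 54.2% with TMM. Against single tissues 35.2% of genes were higher and 30.3% lower than in heart, 38% higher and 35.7% lower than in liver, and 36.7% higher and 31.5% lower than in lung. A stricter set, called kidney-defining below, had to be at least 1 log2 unit higher than heart, than liver and than lung, each with an adjusted p under 0.05. It held 1184 genes (6.88%), and 634 genes (3.69%) were lower than each tissue by the mirror rule. In CPM, every kidney library was above every other library for 5011 of the genes tested (29.1%), and below for 592 (3.44%). Of the 1184, 462 were under 1 CPM in each of the 9 other libraries, and 89 of these were at 10 CPM or more in each kidney. No counts at all were found in the 9 other libraries for 34. Among the genes on the kidney lists, those nearest to the limit were Cldn2, Tfcp2l1 and Trpv5 just inside, with a smallest fold of 1.03, 1.06 and 1.07 log2 units, and Robo2, Mecom and Dll1 just outside, with 0.98, 0.96 and 0.95.

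The highest rises included several transcription factors of the renal lineage. Pax2, which the whole kidney epithelium and its progenitors need, had 276, 293 and 302 CPM in the kidneys and at most 0.784 CPM in any other library; it had no counts in lung, against which it was at least 5520-fold higher by a floor of 3 counts over the group. Pax8, its close relative, had 174, 174 and 217 CPM in kidney, and heart and lung had no counts, which makes it at least 2972-fold and 3585-fold higher. Emx2, a homeobox factor of the urogenital system, had 176, 162 and 167 CPM, at least 2652-fold above heart and 3199-fold above lung. Each of these had similar levels in the 3 kidneys and was at or near 0 in the other tissues. Lhx1, a LIM homeobox factor of early nephrons, was more uneven, with 136, 70.2 and 164 CPM in kidney, against 0 to 0.328 CPM in the other tissues. Of 32 kidney transcription factors tested, 29 were higher than the mean of the other tissues, 1 was lower and 18 were kidney-defining, with a median log2 fold change of 4.57, against 0.06 over all genes tested. The 1 lower factor was Maf, and it was not lower by the test without kidney 2.

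**Figure D1:**
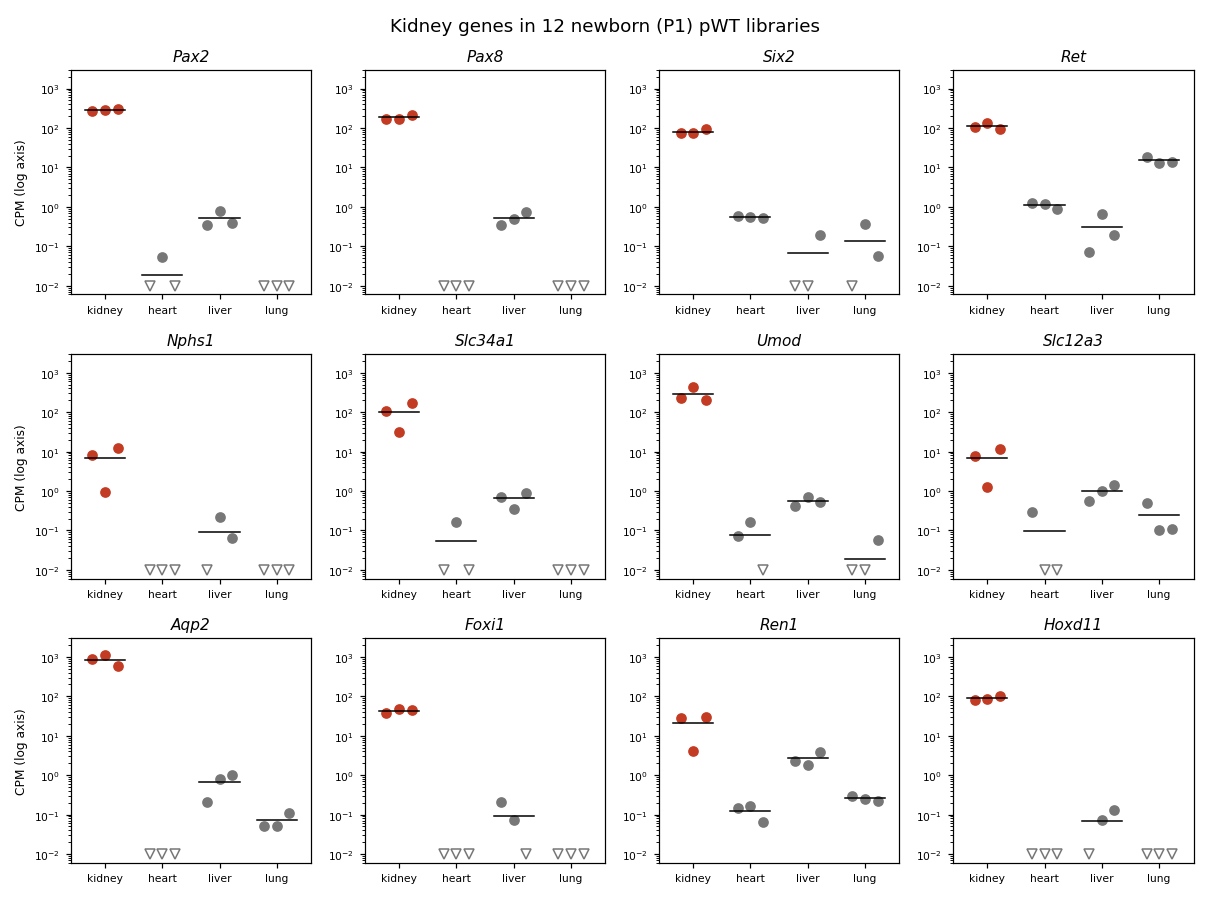
Level in CPM (log axis) of 12 kidney genes in the newborn pWT libraries of kidney, heart, liver and lung; each point is 1 library, horizontal bars are group means, and open triangles mark a count of 0, drawn at 0.01 CPM. The 3 kidneys lie above the 9 other libraries for Pax2, Pax8, Six2, Ret, Slc34a1, Umod, Aqp2, Foxi1, Ren1, Hoxd11 and Nphs1, while Slc12a3 in kidney 2, at 1.29 CPM, lies within the liver range. Of all genes tested, 29.1% had every kidney above every other library.

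Posterior Hox genes, which place the kidney along the body axis, were on in kidney and nearly silent in the 3 more anterior organs. All 10 tested genes of Hox groups 9 to 11 were kidney-defining, with a median log2 fold change of 9.37. Hoxd11 had 79.7, 86.9 and 101 CPM and Hoxa11, its partner in kidney formation, 74.9, 87.9 and 83.9 CPM; in the 9 other libraries they reached 0.131 and 0.142 CPM. Hoxa10 was higher still, at 180, 193 and 218 CPM, against at most 0.641 CPM elsewhere. Over the whole family 26 of 33 tested Hox genes were kidney-defining and 32 were higher than the mean of the other tissues. Anterior members were mixed. Hoxa2, Hoxa4 and Hoxa5, named like the next 4 after their values were seen, had 9.13, 4.38 and 36.8 CPM in kidney on average, against 15.4, 8.05 and 67.8 CPM in lung. Hoxd3, Hoxd4, Hoxc4 and Hoxc5 were kidney-defining, with 82.9, 96.6, 25.6 and 10.7 CPM in kidney on average, against 0.197, 0.888, 0.367 and 0.034 CPM in lung. The antisense transcripts Hoxa11os and Emx2os also rank among the 20 highest rises; the sources used here do not say whether reads were counted by strand, so their reads cannot be told from those of their neighbours.

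Nephron progenitor genes were present in all 3 kidneys: 11 of 12 were higher than the mean of the other tissues and 7 were kidney-defining, with a median log2 fold change of 4.19. Six2, the factor that keeps progenitors undifferentiated, had 74.8, 75.2 and 93.5 CPM in kidney, against 0 to 0.575 CPM in the 9 other libraries. Its log2 fold change over heart, the next tissue, was 6.74 ± 0.36 (SE, adjusted p = 7.79e-10). Gdnf, the ligand that progenitors send to the ureteric bud, had 64.3, 48.6 and 78.9 CPM, against 4.55 to 5.89 CPM in lung. Cited1, another progenitor marker, did not set kidney apart, since heart carried more of it: 32.8, 41.6 and 38.1 CPM in kidney, against 42.5 to 56.6 CPM in heart, a log2 fold change of -0.84 ± 0.23 (SE, adjusted p = 0.00444). Of 9 genes of the surrounding stroma 6 were higher and 2 lower. Foxd1, the stromal progenitor factor, had 12.2, 9.95 and 13.4 CPM, against no counts in liver and at most 0.36 CPM in heart and lung. Penk, a peptide precursor of kidney stroma, had 291, 442 and 326 CPM in kidney, against 11.6 to 13.2 CPM in lung. The lower pair was Foxf1, a lung mesenchyme factor at 0.925, 1.17 and 2.73 CPM in kidney and 265 to 312 CPM in lung, and Dcn, a matrix proteoglycan.

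On the ureteric side all 10 tip genes were higher than the mean of the other tissues and 8 were kidney-defining, with a median log2 fold change of 4.58. Ret, the receptor that reads GDNF at the bud tip, had 104, 132 and 94.1 CPM in kidney, against 13.3 to 17.9 CPM in lung, its next tissue (log2 fold change 2.62 ± 0.21, SE, adjusted p = 7.31e-08). Its co-receptor Gfra1 had 219, 225 and 210 CPM, against 17.9 to 25.5 CPM in lung. Wnt11, a tip signal induced by RET, had 77.6, 124 and 71.3 CPM, and Etv4, a transcription factor downstream of RET, 120, 129 and 113 CPM. Gdnf, Ret, Gfra1, Wnt11 and Etv4 were each above the 9 other libraries in all 3 kidneys, as were 29.1% of genes tested. Etv5, a relative of Etv4 that also acts downstream of RET, was not: it had 136 to 150 CPM in kidney, against 237 to 262 CPM in lung. Spry1, a feedback inhibitor of RET signals, had 145 to 165 CPM in kidney, against 170 to 192 CPM in lung. Of 29 genes of RET, Wnt, BMP, FGF and Notch signals in branching tested, 27 were higher and 12 kidney-defining (median 2.61). Notch1 missed the threshold, and Fgf7 was lower (log2 fold change -1.04, adjusted p = 0.0488). The Fgf7 call was lost without any of 9 of the 12 libraries, with adjusted p up to 0.209. Wnt4, which turns progenitors into epithelium, had 277, 301 and 281 CPM in kidney, against 56.9 to 94.1 CPM in liver.

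Podocyte genes, which mark the glomerulus, split into higher and lower members. Of 16 podocyte genes 11 were higher than the mean of the other tissues, 4 were lower and 4 were kidney-defining, with a median of 1.51. Nphs1 (nephrin), an adhesion protein of the slit diaphragm, was low and uneven, with 8.2, 0.937 and 12.1 CPM in the kidneys, against at most 0.214 CPM in the other tissues. Kidney 2 held the lowest level of the 3, still above the 9 other libraries. Wt1, the podocyte and progenitor factor, was robust at 194, 128 and 230 CPM, against 26.1 to 32.2 CPM in heart. The summed CPM of the 16 genes was 1993 to 2062 in kidney, against 4334 to 4410 in lung. Members called higher could also have more RNA in lung. Col4a3 had 42.3 to 86.8 CPM in kidney, against 436 to 485 CPM in lung, and Tcf21 203 to 241 CPM, against 390 to 441 CPM. Podxl was not called and Clic5 was lower. Podxl, the podocyte sialomucin that endothelium makes too, had 192, 97.4 and 233 CPM in kidney, against 574 to 720 CPM in lung, and its difference from the mean of the tissues was -0.12 ± 0.19 (SE, adjusted p = 0.58), or 0.39 with library totals alone. Clic5, a chloride channel protein of podocyte foot processes, had 25, 12.1 and 35.6 CPM, against 918 to 1110 CPM in lung. Synpo, Cldn5 and Plce1 were the other lower genes; with library totals alone the Synpo call was lost, at -0.30 (adjusted p = 0.074), against -0.81.

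Proximal tubule genes, the transporters and enzymes that recover the filtrate, spread widely: 19 of 24 were higher, 2 lower, 3 not called and 11 kidney-defining, with a median of 4.54, or 4.51 with genes that had no counts in a tissue set at their bound. Slc34a1, the sodium phosphate cotransporter of this segment, had 105, 31.6 and 172 CPM in kidney, against 0.356 to 0.917 CPM in liver, and no counts in lung, against which it was at least 1960-fold higher. Slc22a6 and Slc22a8, organic anion transporters that secrete drugs, had 28.1, 6.03 and 43.6 CPM, and 26.2, 10.4 and 37.4 CPM, with at most 0.449 CPM elsewhere. The endocytic receptor Lrp2 (megalin) had 244, 98.8 and 321 CPM and its partner Cubn (cubilin) 48.8, 32.8 and 72.2 CPM. Lung came next for Lrp2, at 23.1 to 40.8 CPM (log2 fold change 2.69 ± 0.35, SE, adjusted p = 1.03e-05). All 5 were lowest in kidney 2 and highest in kidney 3. Enzymes shared with the liver were not kidney-defining. Hnf4a, the factor both organs use, had 105, 36 and 127 CPM in kidney, against 210 to 300 CPM in liver, and the gluconeogenic enzyme Fbp1 had 57.4, 19 and 77.5 CPM, against 715 to 973 CPM. The lower pair was Cyp2e1, a liver cytochrome, and Aqp1, a water channel at 371, 458 and 257 CPM in kidney and 945 to 1110 CPM in lung. Slc5a2, the sodium glucose cotransporter of the early proximal tubule, had 16.2, 19.3 and 20.5 CPM in kidney, between the 12.5 to 15.9 CPM of lung and the 23.8 to 29.3 CPM of liver; its difference from the mean was -0.12 ± 0.12 (SE, adjusted p = 0.374), or 0.39 with library totals alone.

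Genes of the loop of Henle and the collecting duct were nearly all higher in kidney. For the loop 11 of 12 genes were higher and 6 kidney-defining, with a median of 6.71, or 5.94 with genes that had no counts in a tissue at their bound. Umod (uromodulin), the main protein of normal urine, had 232, 440 and 205 CPM in kidney, against 0.425 to 0.712 CPM in liver, a log2 fold change of 8.18 ± 0.39 (SE, adjusted p = 1.11e-10). Slc12a1, the furosemide-sensitive salt cotransporter, had 394, 534 and 269 CPM and the potassium channel Kcnj1, which recycles potassium for it, 52.6, 63.7 and 25.6 CPM; none of the 9 other libraries passed 1.42 CPM for either. Kidney 2 was the highest kidney for all 3. Egf, a growth factor of the mature loop and distal tubule, was the 1 loop gene not called: 3.27, 2.52 and 3.39 CPM in kidney, against 3.12 to 4.46 CPM in heart. With library totals alone Egf was called higher, by 0.89 (adjusted p = 0.0209).

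All 16 collecting duct genes were higher than the mean of the other tissues and 8 were kidney-defining, with a median of 4.97. Aqp2, the water channel that vasopressin moves to the membrane, ranked first among the rises by fitted log2 fold change. It had 860, 1120 and 593 CPM in kidney, against at most 0.983 CPM in the 9 other libraries, highest in liver, and no counts in heart. Its basolateral partner Aqp3 had 183, 218 and 170 CPM and the vasopressin receptor Avpr2 31.8, 46.4 and 27 CPM. Hormone receptor and both water channels were thus above each other library, as were 29.1% of genes tested. The sodium channel subunits were shared with lung. Scnn1a had 69.3, 53.1 and 42.1 CPM in kidney, against 499 to 724 CPM in lung, and Scnn1b had 134, 167 and 128 CPM, against 111 to 131 CPM, with a log2 fold change over lung of -0.01 ± 0.16 (SE, adjusted p = 0.978). The acid-secreting intercalated cells gave the highest median of the nephron and duct segments, 7.38, or 6.44 with genes at their bound: 11 of 13 were higher and 9 kidney-defining. Foxi1, their master factor, had 37.4, 46.6 and 45.1 CPM, against none in heart and lung and at most 0.213 CPM in liver. Atp6v1b1, the proton pump subunit of these cells, had 53.2, 62.3 and 48.7 CPM and Rhcg, an ammonia channel, 97.1, 97.5 and 70.9 CPM. The lower pair was Slc4a1 and Car2, an anion exchanger and a carbonic anhydrase that red cells also carry; Slc4a1 had 20.8, 19.4 and 23.4 CPM in kidney, against 4120 to 5230 CPM in liver. In the distal convoluted and connecting tubule 6 of 11 genes were higher, 1 was lower and 6 were kidney-defining. Calb1, a calcium buffer of these cells, had 219, 186 and 172 CPM, against at most 0.356 CPM elsewhere, while Slc12a3, the thiazide-sensitive salt cotransporter, had only 7.71, 1.29 and 11.6 CPM, against 0.567 to 1.44 CPM in liver.

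**Figure D2:**
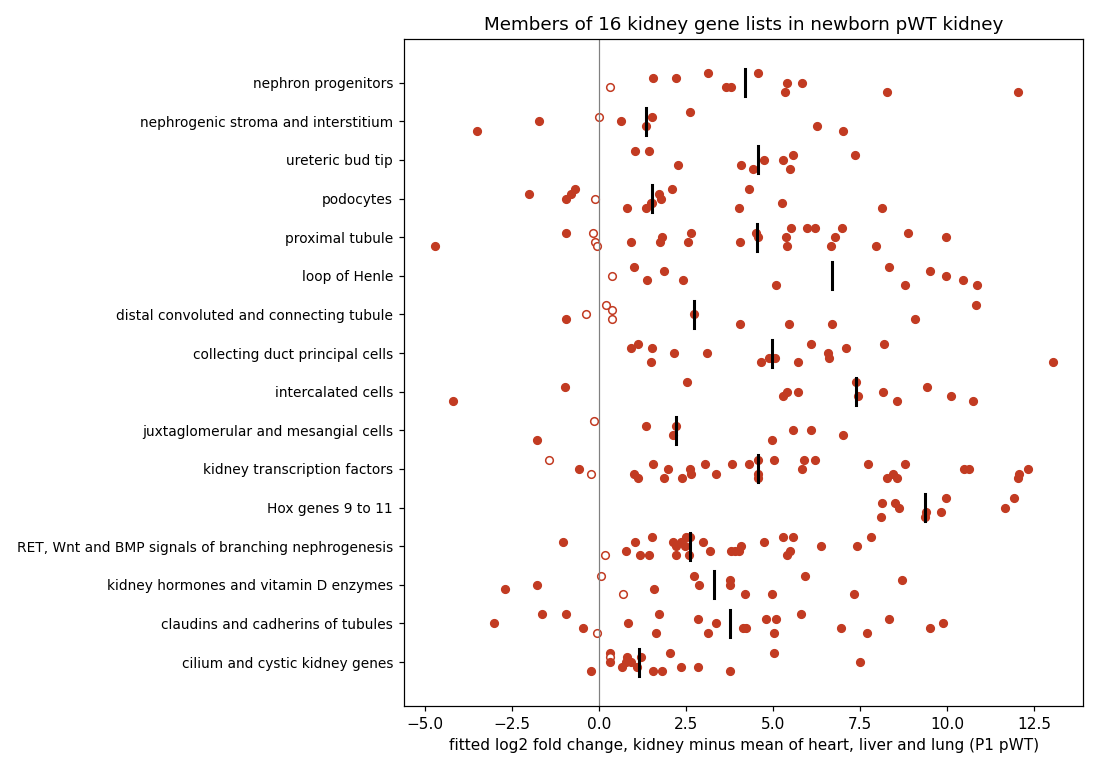
Fitted log2 fold change of newborn pWT kidney over the mean of heart, liver and lung for each tested member of 16 kidney gene lists; filled points passed an adjusted p of 0.05, open points did not, and black bars are medians. Hox genes 9 to 11 lie furthest to the right with a median of 9.37, and podocyte genes with a median of 1.51 straddle 0.

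Promoters of 5 segment genes are shown because 4 of the 5 hold the word GTTAAT, known from regulatory sequence of kidney tubule and liver genes. Each run is the 250 bases before the gene start, 5′ to 3′ on the gene's strand, from RefSeq on GRCm38.p6; capitals mark GTTAAT or its reverse complement ATTAAC. The windows are chr13:55399398-55399647 on the plus strand for Slc34a1, chr19:8617746-8617995 plus for Slc22a6, chr19:8592932-8593181 plus for Slc22a8, chr7:119479263-119479512 minus for Umod and chr15:99578806-99579055 plus for Aqp2.
Slc34a1: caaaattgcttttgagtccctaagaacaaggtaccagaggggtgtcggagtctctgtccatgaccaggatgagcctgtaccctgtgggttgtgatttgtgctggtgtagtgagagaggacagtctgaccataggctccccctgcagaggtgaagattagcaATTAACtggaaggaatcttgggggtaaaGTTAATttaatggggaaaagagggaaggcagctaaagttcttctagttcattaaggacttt
Slc22a6: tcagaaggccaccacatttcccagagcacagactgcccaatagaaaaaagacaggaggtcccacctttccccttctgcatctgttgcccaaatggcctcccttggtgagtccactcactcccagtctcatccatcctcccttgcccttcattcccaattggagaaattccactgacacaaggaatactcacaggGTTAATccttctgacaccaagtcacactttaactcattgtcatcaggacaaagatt
Slc22a8: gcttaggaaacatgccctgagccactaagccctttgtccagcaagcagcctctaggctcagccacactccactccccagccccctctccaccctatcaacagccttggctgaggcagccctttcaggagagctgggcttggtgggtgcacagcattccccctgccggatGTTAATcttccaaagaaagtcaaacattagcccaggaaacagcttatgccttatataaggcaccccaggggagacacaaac
Umod: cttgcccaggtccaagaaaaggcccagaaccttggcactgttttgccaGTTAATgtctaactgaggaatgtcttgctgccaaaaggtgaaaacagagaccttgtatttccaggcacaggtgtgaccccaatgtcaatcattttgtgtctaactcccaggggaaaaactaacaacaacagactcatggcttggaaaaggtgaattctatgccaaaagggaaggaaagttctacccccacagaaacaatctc
Aqp2: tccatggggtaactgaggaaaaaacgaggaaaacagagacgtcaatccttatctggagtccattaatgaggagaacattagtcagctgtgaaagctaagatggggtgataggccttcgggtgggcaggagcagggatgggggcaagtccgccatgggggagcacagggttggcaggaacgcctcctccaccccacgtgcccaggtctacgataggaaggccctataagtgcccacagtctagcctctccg
The word starts 61 bases before the gene start in Slc34a1 on the same strand, with another copy on the opposite strand at 89, and 56, 81 and 202 bases before the start in Slc22a6, Slc22a8 and Umod. Searched on both strands, it was in 7.5% of 27025 promoters of this length, in 5.8% of the 13251 tested genes with a promoter sequence and in 85 of 868 kidney-defining genes (9.8%). Of 20 proximal tubule genes with a sequence 6 held it (30%), as did 2 of 10 loop genes, 2 of 10 podocyte genes, 4 of 14 claudins and cadherins (28.6%), 2 of 6 Hox genes of groups 9 to 11 (33.3%), 0 of 12 collecting duct genes and 0 of 7 progenitor genes. A match describes letters in a window; binding was not measured.

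Hormone genes of the kidney were partly set apart. Of 14 tested, 10 were higher and all 10 were kidney-defining, 2 were lower and 2 not called. Ren1 (renin), made by juxtaglomerular cells to raise blood pressure, had 27.9, 4.04 and 30.1 CPM in kidney, against 1.85 to 3.8 CPM in liver, so kidney 2 lay just above the liver libraries. Kl (klotho), the co-receptor for the phosphate hormone FGF23, had 43.4, 29 and 67.7 CPM, against at most 0.841 CPM elsewhere. Cyp27b1 and Cyp24a1, which make and break down active vitamin D, had 18.4, 2.99 and 6.83 CPM, and 11, 2.63 and 11.7 CPM. Agt, the renin substrate, was lower in kidney than in liver, at 13.7, 12.3 and 20.4 CPM in kidney, against 909 to 1090 CPM. Ace, the converting enzyme, was not called (adjusted p = 0.873), but was higher by 0.56 with library totals alone (adjusted p = 0.0451); kidney held 44, 40.6 and 70.7 CPM and lung 594 to 899 CPM. Epo (erythropoietin) had no counts in any of the 12 libraries. Of 22 claudins and cadherins tested 17 were higher and 11 kidney-defining: Cdh16, the kidney-specific cadherin, had 619, 804 and 532 CPM, against at most 10.8 CPM elsewhere. Cldn8, a claudin of the collecting duct, had 248, 336 and 221 CPM.

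Genes mutated in cystic kidney disease were only modestly above the other tissues. Of 18 cilium and cystic kidney genes 16 were higher and 5 kidney-defining, but the median was 1.14. Pkhd1 (fibrocystin), the gene of the recessive disease, was at 59.3, 62.8 and 48.9 CPM, against at most 1.92 CPM elsewhere. Bicc1, an RNA-binding protein of tubule cells, had 298, 336 and 262 CPM, against 75.6 to 88 CPM in lung (log2 fold change 1.61 ± 0.15, SE, adjusted p = 2.79e-07). Pkd1 (polycystin-1), the main gene of the dominant disease, was not a kidney gene on this measure: 124, 118 and 137 CPM in kidney, against 249 to 283 CPM in lung, 94.1 to 131 CPM in heart and 33 to 41.2 CPM in liver. It differed from the mean by -0.24 ± 0.09 (SE, adjusted p = 0.0346), or by 0.28 with library totals alone; the lower call was lost without kidney 1 (0.105), kidney 2 (0.115) or lung 1 (0.0562).

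Beyond the lists, 42 of 331 tested solute carriers were kidney-defining, which made up 3.55% of kidney-defining genes and 1.92% of genes tested. Claudins gave 8 of 21 and potassium channel genes 11 of 73, against 6.88% of all genes tested. Of the 73 potassium channel genes 39 were higher and 16 lower than the mean of the other tissues, against 36.3% and 30.7% of all genes tested. Among the 20 highest rises were also Uncx and Sim1, homeobox and bHLH factors with 78.1, 72.4 and 91.7 CPM, and 31, 25.3 and 23.2 CPM, at most 0.0655 CPM in any other library. Slc6a18, an amino acid transporter of the proximal tubule, had 98.7, 78.6 and 153 CPM. Serpina6, the glucocorticoid-binding globulin known as a liver product, had 396, 435 and 484 CPM in kidney, against 3.4 to 11.1 CPM in liver. Gsdmc2 had 46.4, 112 and 39 CPM, but near-identical relatives such as Gsdmc3, also in the top 20, could share its reads. The largest falls were cardiac: Gata4, a heart and gut factor, had 0, 0 and 0.164 CPM in kidney, against 177 to 242 CPM in heart, and Hand2 had 0, 0.0585 and 0.0546 CPM, against 139 to 154 CPM. All 10 cardiac muscle genes, all 10 hepatocyte genes and all 9 erythroid genes tested were lower in kidney than in the mean of the tissues, 8 of 10 lung epithelium genes were lower and 2 higher.

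The 3 newborn kidneys differed from each other by segment. Kidney 2 was the lowest of the 3 for 22 of 24 proximal tubule genes, 11 of 16 podocyte genes, 8 of 11 distal convoluted tubule genes, 7 of 9 juxtaglomerular and mesangial genes and 11 of 14 hormone genes, against 39.8% of all genes tested. It was the highest for 10 of 12 loop genes, 12 of 16 collecting duct genes and 10 of 13 intercalated cell genes, against 32.6% of all genes tested. The median proximal tubule gene was 1.28 log2 units lower in kidney 2 than in the mean of kidneys 1 and 3, and the median loop gene 0.50 higher. The medians of progenitor, Hox and transcription factor genes in kidney 2 were -0.05, -0.05 and -0.08 log2 units from the other 2 kidneys. Leaving kidney 2 out moved the number of kidney-defining genes within the range of 1147 to 1228 that leaving out each library in turn gave. The part of the organ in each library was not tested.

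The kidney-defining genes were then followed into libraries that the rule had not used. At E18.5, where 17331 genes were tested and 3127 (18%) were higher in pWT kidney than in the mean of pWT heart, liver and lung, 995 of the 1127 kidney-defining genes tested were higher (88.3%) and 0 lower, with a median log2 fold change of 3.59. Without E18.5 kidney 1 that count was 769 and without E18.5 kidney 2 it was 828, against 1950 and 1884 over all genes; alternatives ran between 769 and 1042. In pIR at P1, where 5301 of 17862 genes (29.7%) were higher in kidney, 1149 of the 1184 genes were higher (97%) and 1 was lower. The pIR contrast was fitted together with the newborn pWT libraries that the rule had used. Those libraries entered its gene filter, scaling and estimate of spread, and all 1184 genes passed that filter. Brain was no part of the rule. At E18.5, 525 of the 1154 kidney-defining genes tested (45.5%) were higher in pWT kidney than in pWT brain and 357 (30.9%) were lower. Over 18204 genes tested the shares were 32.1% higher and 26.1% lower. Of the 112 kidney-defining genes on the kidney lists, 94 were higher than in brain, 15 were not called and 3 were lower, namely Sox8, Cdh4 and Ptpro.

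**Figure D3:**
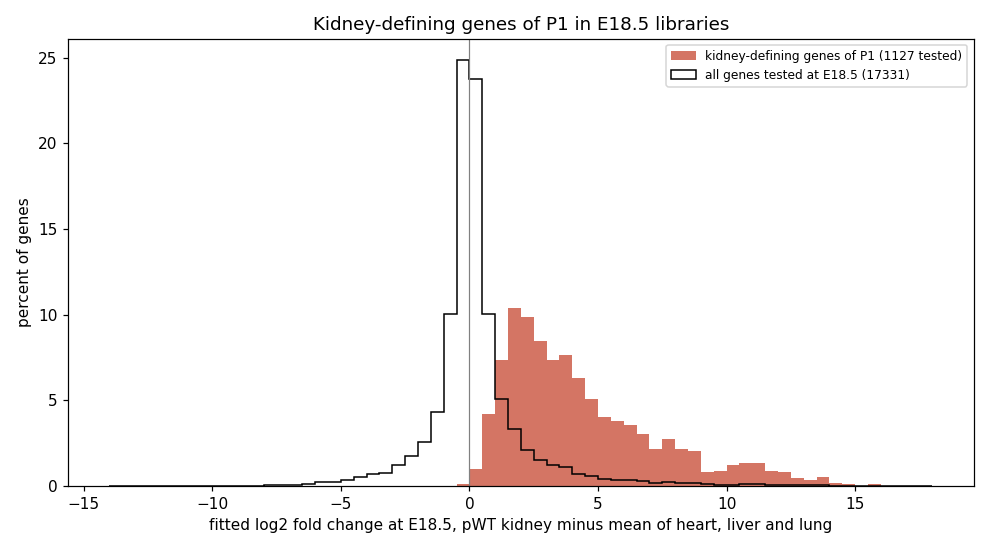
Distribution of the fitted log2 fold change of E18.5 pWT kidney over the mean of heart, liver and lung, as percent of genes per bin, for the kidney-defining genes of P1 (filled) and for all genes tested at E18.5 (line). The kidney-defining genes lie to the right of 0 with a median of 3.59.

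Set beside the other kidneys, newborn pWT kidneys held less RNA of several glomerulus, proximal tubule and renin cell genes. The summed CPM of 24 proximal tubule genes was 5700 to 6073 in pIR kidneys at P1, against 1020 to 1898 in pWT kidneys at P1, with 2733 to 3169 in pTKO and 4401 to 7413 in pWT at E18.5. The sum of 16 podocyte genes differed less, at 3109 to 3229 in pIR, against 1993 to 2062 in pWT at P1, with 2245 to 2340 in pTKO and 2591 to 3240 in pWT at E18.5. Nphs1 had 63 and 63.9 CPM in pIR kidneys at P1, against 8.2, 0.937 and 12.1 CPM in pWT kidneys at P1; pTKO kidneys at E18.5 had 56.6 and 49.6 CPM and pWT kidneys at E18.5 56.8 and 82.9 CPM. Slc34a1 had 846 and 807 CPM in pIR at P1, against 105, 31.6 and 172 CPM in pWT at P1, with 435 and 360 CPM in pTKO and 566 and 1090 CPM in pWT at E18.5. Ren1 had 574 and 610 CPM in pIR at P1, against 27.9, 4.04 and 30.1 CPM in pWT at P1, with 133 and 83.5 CPM in pTKO and 144 and 293 CPM in pWT at E18.5. For these genes the 3 newborn pWT kidneys lay below all 6 others. Umod was different, with 332 and 326 CPM in pIR at P1, against 232, 440 and 205 CPM in pWT at P1, and 341 and 282 CPM in pWT at E18.5. Six2 had 58.6 and 45.7 CPM in pIR, against 74.8, 75.2 and 93.5 CPM in pWT at P1. Aqp2 was highest in the newborn pWT kidneys, whose lowest value of 593 CPM was above the 456 and 560 CPM of pIR.

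**Figure D4:**
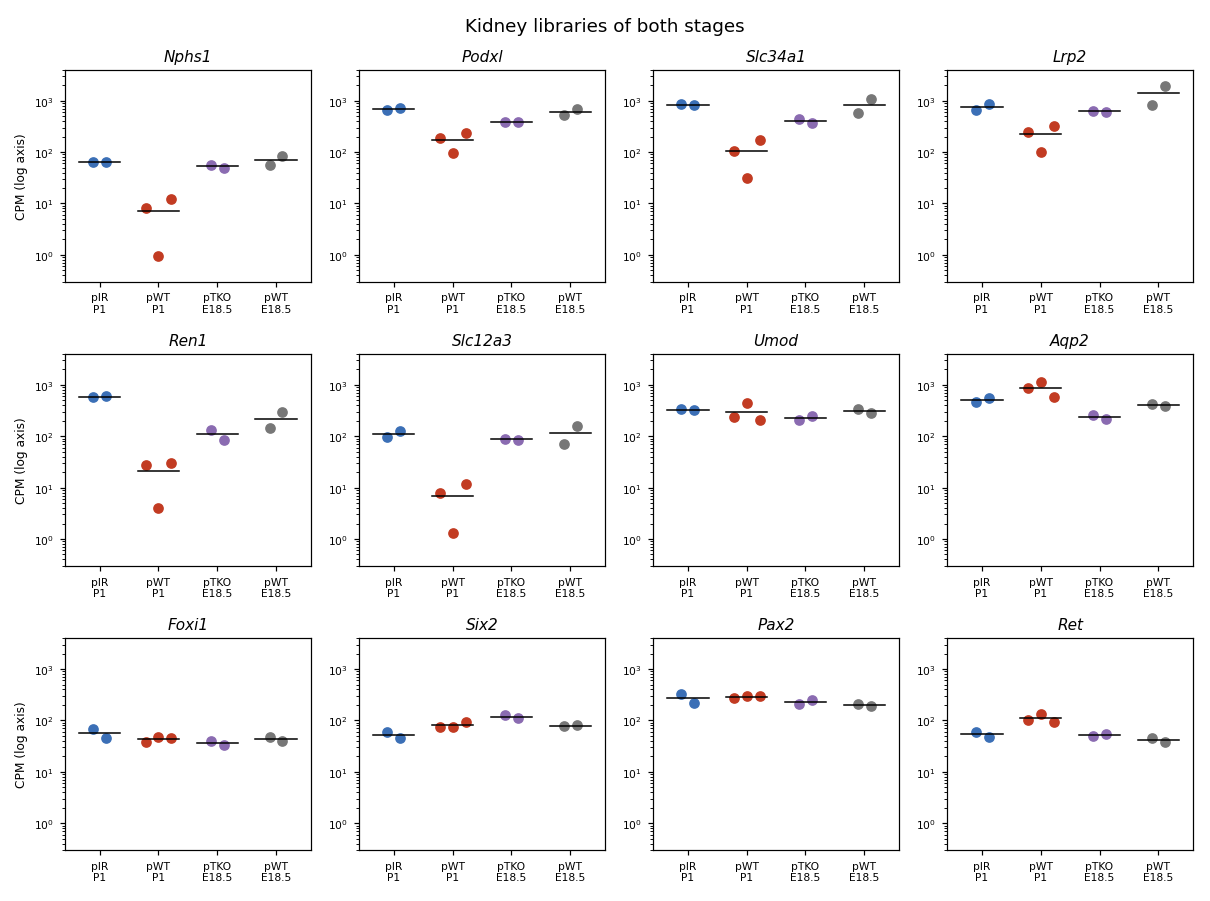
Level in CPM (log axis) of 12 genes in the kidney libraries of pIR at P1, pWT at P1, pTKO at E18.5 and pWT at E18.5; points are libraries and bars group means. For Nphs1, Podxl, Slc34a1, Ren1 and Slc12a3 the 3 newborn pWT kidneys lie below the others, while for Umod, Foxi1, Six2 and Pax2 they overlap the range of the other 6 libraries.

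The lists were then compared between stages. In a direct test of P1 against E18.5 pWT kidney, chosen after the data were seen, 1623 of 17977 genes (9.03%) were higher at P1 and 2543 (14.1%) lower. Without E18.5 kidney 2 these counts were 482 and 778, without P1 kidney 2 900 and 1569, and without P1 kidney 1 1692 were lower; with a replicate block they were 761 and 1246. Of 24 proximal tubule genes 15 were lower and 0 higher, with a median log2 difference of -1.95. Cubn, at 48.8, 32.8 and 72.2 CPM at P1, against 259 and 486 CPM at E18.5, differed by -2.98 ± 0.35 (SE, adjusted p = 9.17e-05). Of 16 podocyte genes 9 were lower and 0 higher, or 5 lower without E18.5 kidney 2. Nphs1 differed by -3.41 ± 0.75 (SE, adjusted p = 0.0111), a call lost under DESeq2 (0.104), the replicate block (0.0967) or without E18.5 kidney 2 (0.0741). Of 15 hormone genes 9 were lower and 1 higher, or 5 lower without kidney 1 or 2 of P1 or kidney 2 of E18.5. Not all members moved: Wt1 differed by -0.03 (adjusted p = 0.94) and the proximal tubule gene Kap by -0.33 (adjusted p = 0.729). Among the hormone genes Kl had 43.4, 29 and 67.7 CPM at P1, against 240 and 678 CPM at E18.5, and Cyp27b1 18.4, 2.99 and 6.83 CPM, against 129 and 234 CPM.

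Some ureteric and collecting duct genes were higher at P1. Of 10 tip genes 4 were higher at P1 and 0 lower, or 2 and 0 higher without E18.5 kidney 1 or 2. Ret had 104, 132 and 94.1 CPM at P1, against 46.1 and 38.7 CPM at E18.5, a log2 difference of 1.28 ± 0.31 (SE, adjusted p = 0.00904) that was lost under the block (0.109) and without E18.5 kidney 2 (0.0845). Of 16 collecting duct genes 6 were higher and 1, Kcne1, lower, but 1, 1, 1 and 0 were higher without P1 kidney 1, P1 kidney 2, E18.5 kidney 1 or E18.5 kidney 2. None of the 10 Hox genes of groups 9 to 11 was called. Other cell types moved as well. Of 8 endothelial genes 5 were lower at P1, with a summed CPM of 802 to 839 at P1, against 1276 to 1615 at E18.5, and of 9 erythroid genes 4 were lower, with 683 to 777 CPM, against 1743 to 1754 CPM. The E18.5 pWT kidneys also differed from each other, with Alb at 470 and 23 CPM and the proliferation gene Mki67 at 275 and 55.1 CPM, and the part of these differences in the results was not tested. The E18.5 libraries carry batch 1 and the P1 libraries no batch label, so stage and any batch or preparation difference cannot be told apart.

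**Figure D5:**
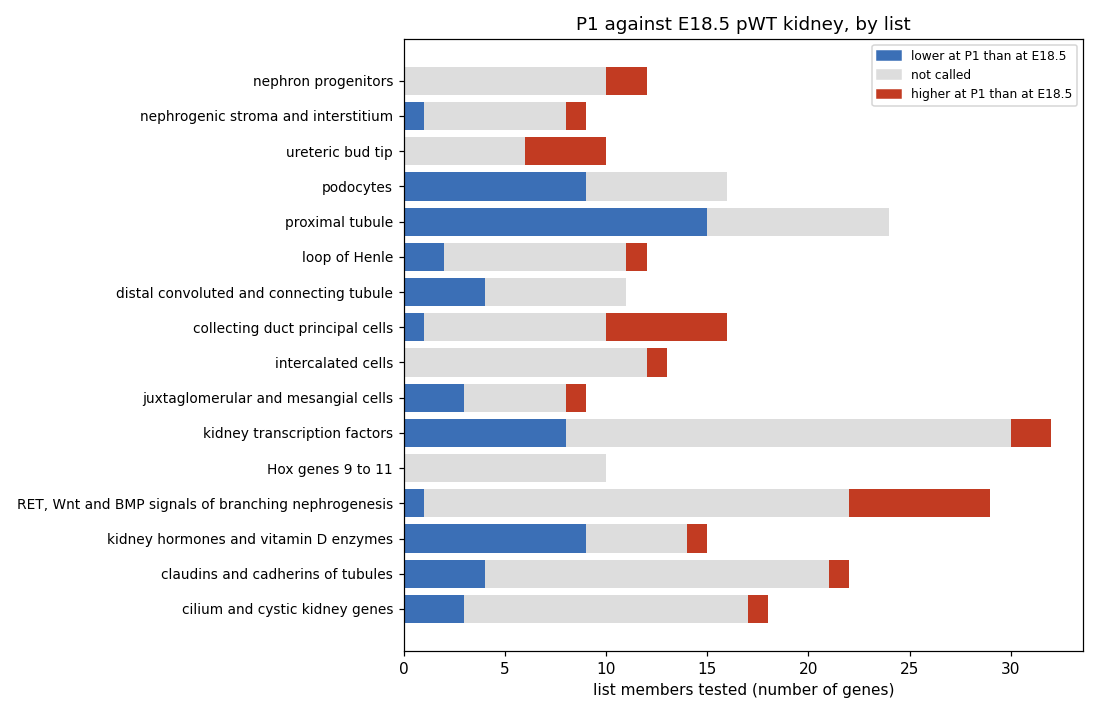
Number of tested members of each kidney list that were lower (blue), not called (grey) or higher (red) in P1 pWT kidney than in E18.5 pWT kidney. Proximal tubule (15 of 24 lower), hormone (9 of 15) and podocyte (9 of 16) lists hold most of the lower calls.

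The kidney contrast itself, kidney minus the mean of heart, liver and lung, was compared between stages and between genotypes; both differences share the 3 newborn pWT kidneys. Against E18.5, 265 genes (1.47%) had a higher and 809 (4.5%) a lower contrast at P1. Against pWT, 524 of 17862 genes (2.93%) had a higher and 255 (1.43%) a lower contrast in pIR at P1. Without E18.5 kidney 2 the stage counts were 68 and 185, without P1 pWT kidney 1 141 and 401, and without P1 pWT kidney 2 129 and 434. The higher count was also 172 without E18.5 kidney 1, 156 without E18.5 lung 1, and 619 and 506 without E18.5 liver 1 or 2. The genotype counts were 227 and 42 without pIR kidney 1, 338 and 123 without pIR kidney 2, 317 and 121 without pWT kidney 1, and 330 and 113 without pWT kidney 2. The lower count was also 435 without pIR heart 1, and 160 and 148 without pIR lung 1 or 2. Podxl had 653 and 736 CPM in pIR kidneys, against 192, 97.4 and 233 CPM in pWT, and its contrast was higher in pIR by 2.19 ± 0.27 log2 units (SE, adjusted p = 0.000224); between P1 and E18.5 pWT, at 529 and 695 CPM at E18.5, the contrast differed by -1.73 ± 0.29 (adjusted p = 0.00341). Pth1r, the parathyroid hormone receptor of proximal tubule and podocytes, had 238 and 266 CPM in pIR kidneys, against 63.6, 49.5 and 84.7 CPM in pWT, and its contrast was higher in pIR by 1.84 ± 0.21 (SE, adjusted p = 9.62e-05). In the other direction Gfra1 had 135 and 130 CPM in pIR kidneys, against 219, 225 and 210 CPM in pWT, with a contrast lower by 1.82 ± 0.16 log2 units in pIR (SE, adjusted p = 3.08e-05). Each contrast also takes in the other tissues. The summed CPM of the 10 tip genes was 622 to 732 in pIR kidneys, against 947 to 1063 in pWT. In the other tissues it was higher in pIR. Lung had 575 to 585, against 492 to 504 in pWT. Heart had 131 to 139, against 101 to 118, and liver 79.8 to 83.3, against 51.2 to 58.4. By list, the pIR minus pWT difference was higher for 8 of 24 proximal tubule genes, 4 of 16 podocyte genes and 4 of 15 hormone genes, with none lower, and lower for 4 of 10 tip genes, with none higher. The proximal tubule count was 5 without pWT kidney 1, pIR kidney 1 or pIR kidney 2, the hormone count 2 without pIR kidney 1, and the tip count 2 without pIR kidney 2, where the calls of Etv4 (adjusted p = 0.124) and Sox9 (0.114) were lost. Genes of other cell types differed too: 5 of 8 endothelial and 5 of 9 erythroid genes had a higher contrast in pIR and none a lower one. The summed CPM of the endothelial genes was 1075 to 1287 in pIR kidneys, against 802 to 839 in pWT kidneys, and that of the erythroid genes 612 to 877, against 683 to 777. In the other tissues the erythroid sum was lower in pIR. Liver had 15643 to 23920, against 56050 to 69919 in pWT, lung 8498 to 11330, against 17399 to 27161, and heart 2089 to 2398, against 3727 to 4591. The part of endothelial and erythroid genes in the other differences was not tested. Of the 1184 kidney-defining genes, 15 had a higher and 51 a lower contrast in pIR, and 41 a higher and 29 a lower contrast at P1 than at E18.5. These genes were selected for a high contrast in the same P1 pWT libraries that enter both differences. The selection itself moves such counts, so no result about the set is drawn from them.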

How the data were processed

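Poly(A) RNA of mouse tissues was sequenced; the labels' protocols name an mRNA kit and a Smart-Seq2 kit without saying which library used which. The deposited tables hold raw counts per gene, whole numbers with no normalization. Per the submitters' processing notes, Trim Galore 0.6.6, HISAT2 2.1.0, featureCounts 1.6.4, DESeq2 and mm10 were used. How strand and multiple matches were handled is not stated by the labels or headers, so Ass1, whose counts equal those of its copy Gm5424, and other near-identical genes are uncertain. The tables list 25277 gene symbols.

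The kidney libraries and gene lists were chosen with earlier results of these data known. Groups come from the labels. edgeR 4.0.16 (R 4.3.3, limma 3.58.1) was run on the counts: filterByExpr with a minimum count of 10, TMM scaling, quasi-likelihood F test, Benjamini-Hochberg adjustment over all genes tested and a threshold of 0.05. CPM divides by the library total without TMM. The newborn pWT contrast used its 12 libraries (13904567 to 19673513 counts, with TMM factors of 1.29 to 1.32 in kidney and 0.71 to 0.74 in liver); the other contrasts were fitted on the libraries of the stages or genotypes compared. The SE comes from the quasi-likelihood test and includes the spread between libraries. The floor of 3 counts covers counting error only. On simulated counts with the P1 design 98.5% of 4-fold changes were recovered, and 91% with the E18.5 design. The simulation drew each gene from the trended spread and gave all tissues the same mean apart from the changed genes. It changed no genes of low count, so recovery in the real libraries may be lower.

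Named genes are list members, up to 20 kidney-defining genes with the largest fitted rise and 10 with the largest fall at 10 CPM or more, and the genes with the smallest p in the stage and genotype differences. Fitted folds of genes with no counts in a tissue depend on the prior count, so bounds are given for them. The comparison with brain, the direct test of P1 against E18.5 kidney, the list counts with a kidney left out and scaling by library totals alone were chosen after the data were seen. Replicate numbers were not taken to pair libraries. Alternatives were median-of-ratios scaling, DESeq2 1.42.0, no count filter, a replicate block, leaving out each library, leaving out haemoglobin genes, all 20 P1 libraries in the fit, and brain as a reference tissue. Libraries of other stages, tissues and cells in the series were not analysed here. Promoter sequences are RefSeq's on GRCm38.p6. Some list members are counted but not reported here by name.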

Additional observations from a re-analysis of the deposited data

Results flagged for a closer look

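Effects of kidney against heart, liver and lung that differed between stages or genotypes, by a test of the difference itself (edgeR's quasi-likelihood test), were taken for a closer look. The kidney contrast was higher at P1 than at E18.5 in pWT for 265 genes and lower for 809; in pIR it was higher than in pWT at P1 for 524 genes and lower for 255. Both sets share the newborn pWT kidneys.

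Between P1 and E18.5 the contrast fell for some receptors and enzymes of the proximal tubule. Of 24 proximal tubule genes 11 had a lower contrast at P1, 0 a higher one and 13 were not called. Over all genes tested 4.5% were lower. The log2 difference was -3.12 for Lrp2, -3.45 for Cubn and -3.55 for the gluconeogenic enzyme Fbp1. It was -6.22 for Acmsd and -5.07 for Haao, enzymes of tryptophan breakdown. Haao had 0.802, 0.761 and 0.656 CPM in P1 kidneys, against 27.4 and 25.4 CPM in E18.5 kidneys. Of 16 podocyte genes 6 had a lower contrast and 10 were not called, with -1.73 for Podxl, -2.40 for Synpo and -2.90 for the phosphatase Ptpro. Genes of hormones and vessels gave -3.30 for Ace, -1.54 for Pth1r, -3.51 for the extracellular superoxide dismutase Sod3 and -2.57 for the semaphorin Sema3g. The contrast was higher at P1 for the adhesion gene Ncam1 (1.25), the adenosine receptor Adora1 (2.42), Ypel2 (1.18), the serine synthesis enzyme Psat1 (2.13), the tip factor Sox9 (2.17) and the cadherin Cdh3 (1.66). Of the 10 tip genes 2 had a higher contrast at P1, 1 a lower one and 7 were not called. The lower tip gene was Wnt9b, at -2.51 (adjusted p = 0.037), a call lost when any P1 kidney was left out. Without E18.5 kidney 2 the adjusted p of Lrp2 was 0.0589, of Ptpro 0.0628, of Fbp1 0.0513 and of Cdh3 0.0766.

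Between pIR and pWT at P1 the contrast was higher in pIR by 2.19 for Podxl, 1.54 for Synpo, 2.70 for Ptpro, 1.84 for Pth1r, 2.00 for Ace, 2.87 for Fbp1, 4.28 for Acmsd, 2.04 for the pyruvate carboxylase Pcx and 1.68 for the lambda-crystallin homologue Cryl1. Pcx had 185 and 251 CPM in pIR kidneys, against 39.7, 31.9 and 54.5 CPM in pWT kidneys. The contrast was lower in pIR, with -1.82 for Gfra1, -1.64 for Ret, -1.40 for Nrep, -1.70 for Btbd11 and -1.15 for the adhesion gene Cadm1. Levels in heart, liver and lung enter these differences too. Dlgap1 gave -4.11, yet its kidney levels hardly differed, at 5.96 and 6.01 CPM in pIR, against 6.85, 8.72 and 6.01 CPM in pWT.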

How the results depend on the processing

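The newborn pWT counts were stable: leaving out each library gave 5576 to 6418 genes higher and 4838 to 5446 lower than the mean of the tissues, and 1147 to 1228 kidney-defining genes. A minimum of 2 log2 units against each tissue left 678 kidney-defining genes, and any difference above 0 gave 2049. With library totals alone, chosen after the data were seen, 10658 genes were higher and 2771 lower than the mean, 3198 were lower than heart, and 11167 were higher and 3071 lower than liver. Under that scaling Slc5a2 turned to 0.39, Pdgfrb to 0.38 and Pkd1 to 0.28 log2 units.

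Counts that use groups of 2 libraries moved more. At E18.5 leaving out each library gave 1884 to 3817 genes higher and 697 to 2968 lower. For the difference between stages it gave 68 to 619 higher and 185 to 1199 lower, for the direct test of P1 against E18.5 kidney 482 to 2377 higher and 778 to 3209 lower, and for pIR against pWT 227 to 698 higher and 42 to 435 lower. DESeq2 gave 762 higher for the difference between stages, and 968 higher and 497 lower for pIR against pWT. Where 1 library stood alone in a group, it was assumed to vary like the others. The cause of these moves was not tested.

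Replicate numbers were not taken to pair the libraries. Correlations of same-numbered deviations between tissues were over 0.1 in 6 of 6 cases in pIR at P1 (0.13 to 0.48), in 1 of 9 in pWT at P1 (-0.1 to 0.22) and in 4 of 6 in pWT at E18.5 (-0.25 to 0.69). In groups of 2 libraries the deviations mirror each other, so both replicate numbers gave the same correlation. The pIR and E18.5 cases therefore hold each value in duplicate: 0.17, 0.48 and 0.13 in pIR, and 0.59, 0.69 and -0.25 at E18.5. With the number as a replicate block the direct test gave 761 higher and 1246 lower genes, the pIR minus pWT difference 623 and 329, and 1176 genes were kidney-defining at P1; of all counts of genes under the block those of the direct test alone moved by over 1.5 times. Simulated 2-fold changes were recovered in 92.5% of cases with the P1 design and in 25.4% with the E18.5 design, which limits what the E18.5 libraries could show.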

Other observations

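Some members of the lists fixed for lung epithelium, gut and adrenal gland were measured in newborn pWT kidney too. Napsa, an aspartic protease known from lung and proximal tubule, had 183, 133 and 298 CPM in kidney, against 334 to 442 CPM in lung and at most 22.2 CPM in heart and liver. Vil1 (villin), the brush border protein of gut and proximal tubule, had 25.7, 18.9 and 35.5 CPM in kidney, against at most 2.76 CPM in the other tissues, and was kidney-defining. Foxj1, the factor for motile cilia, had 4.44, 3.57 and 4.43 CPM in kidney, against 61.8 to 69.4 CPM in lung. Pnmt, which makes adrenaline, had 4.87, 4.92 and 3.06 CPM in pWT kidney at P1, against at most 0.383 CPM in the other tissues; pIR kidneys at P1 had 0.86 and 0.583 CPM.

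Of 8 mitotic genes 5 were higher in newborn kidney than in the mean of heart, liver and lung and 3 were not called. Over all genes tested 36.3% were higher and 30.7% lower. Top2a, the topoisomerase of dividing cells, had 207, 140 and 170 CPM in kidney, against 39.7 to 57.6 CPM in heart, 279 to 305 CPM in liver and 11 to 16.7 CPM in lung, so the kidneys lay between liver and the other 2 organs. Of 8 endothelial genes 2 were higher and 6 lower, against the same shares of all genes. Plvap, of fenestrated capillaries, had 126, 149 and 122 CPM in kidney, against 37.8 to 43.4 CPM in heart and 171 to 238 CPM in lung.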
